A study of Drosophila melanogaster with 24 samples.

Results

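The antenna of the rotund (rn) mutant of Drosophila melanogaster was compared with the wild type antenna at 40 h after pupation, across all genes. The comparison takes the 4 libraries that the labels give as antenna at that stage and as wild type or rn[tot] homozygote, of 24 polyA RNA libraries in all, and every one of the 13409 genes to which the counted transcripts could be matched. The wild type flies were w[1118];;+/+ and the mutants w[1118];;rn[tot]/rn[tot]. The heterozygotes of the same stage were w[1118];;rn[tot]/TM6, so they carry the TM6 balancer chromosome beside the rn[tot] allele. All 3 genotypes carry w[1118], a mutation of the white eye colour gene. Each group had n = 2 libraries. The other 18 libraries are the same 3 genotypes from the imaginal disc of wandering larvae, from the antenna at 8 h and from the adult antenna, and they serve here for the spread between replicates and for the course over the stages. The labels do not say what the rn[tot] allele does to the rn transcript, how many animals or which sexes were pooled, or whether a group's libraries are of different animals. The p-values may then measure technical spread only. The rn genotype and any other difference between the wild type and mutant stocks cannot be told apart in this comparison.

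rotund is a zinc-finger transcription factor first known from the patterning of leg and antenna along the axis from body to tip. In the antenna it is active in a ring of the disc that gives rise to olfactory sensilla, the sensory hairs that house the smell neurons, and it helps to set which sensillum types form. In the middle of pupal life the olfactory neurons have been born and extend their dendrites and axons, and most receptor genes are only starting to be transcribed. Other sensory structures of the antenna include the arista, a thermosensory bristle, and the sacculus, a pit lined with sensory cells.

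The 4 libraries held between 10770252 and 12109433 counts over genes, and mitochondrial transcripts took 1.88% and 1.73% of them in the wild type and 1.49% and 1.46% in the mutant. The libraries of a group lay close to each other: the SD over genes of the log2 difference between the 2 wild type libraries was 0.21 and between the 2 mutant libraries 0.26, against 0.50 for the heterozygotes of this stage and up to 1.13 for another group of the series. On the leading principal component of the 6 libraries of the stage, which held 39.1% of the variance, the wild type libraries stood at -39.7 and -38.0, the heterozygotes at 18.3 and 13.7 and the mutants at 20.7 and 25.1. Of 9 antennal olfactory markers, 8 reached 1 CPM (a count relative to the scaled library size) in both groups, and the exception was Ir76b at 0.196 and 0.178 CPM in the wild type. Of 8 leg and homeotic genes and of 6 receptors of the maxillary palp, the neighbouring olfactory organ, none reached 1 CPM in either group. Genes of other cell types were present at low to moderate levels, and some were lower in the mutant. The summed level of the 15 muscle genes was 920 to 1050 CPM in the wild type, 499 to 829 in the mutant and 549 to 1940 in the heterozygote, with 15 of 15 log2 changes below 0 and 0 past the test. The 10 hemocyte genes summed to 112 to 117 CPM in the wild type and 87.9 to 97.1 in the mutant, but 6 of the 10 log2 changes were above 0, with a median of 0.12 and 0 past the test. Pxn, the hemocyte gene peroxidasin, was at 50.6 and 56.9 CPM in the wild type and 24.2 and 24.6 in the mutant (adjusted p = 0.343). The 10 fat body genes summed to 114 to 115 and 92 to 92.4, and the 9 antennal olfactory markers to 657 to 696 and 455 to 601. The part of these differences in the results below was not tested.

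rn itself was near the bottom of the measured range at 40 h. Its level was 2.15 and 3.02 CPM in the wild type, 1.93 and 1.83 in the mutant and 4.98 and 2.14 in the heterozygote. Both mutant libraries lay below both wild type libraries, by a margin smaller than the spread within the wild type. The log2 change of mutant against wild type was -0.46 ± 0.36 (SE; adjusted p = 1). The counted rn transcript, the 1 with the highest total over all libraries, thus remained in both mutant libraries. Its 8 h level was 127 and 79.3 CPM in the wild type and 48.8 and 44.6 in the mutant. That change was -1.14 ± 0.26 (adjusted p = 0.0269), with wild type libraries that disagreed. Larval levels were 42.7 and 43.7 CPM against 74.7 and 68.7 (0.73 ± 0.26, adjusted p = 0.278). The adult change was -0.89 ± 0.36 (adjusted p = 0.279). With the allele's effect on this transcript unknown, these values give no check of the genotype.

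At 40 h a small share of genes passed the test between the 2 genotypes, many of them with large changes. Of 10993 genes with enough counts to be tested, 142 passed the test between mutant and wild type (1.29%), 77 higher in the mutant (0.7%) and 65 lower (0.591%), with edgeR's quasi-likelihood test at an adjusted p under 0.05. At an unadjusted p under 0.05 there were 814. The median absolute log2 change was 2.17 among the 142 and 0.19 among all genes tested. The test passes large changes more readily than small ones, so the first of these medians is raised by the selection. For 27 of the 142 the higher-group mean was under 5 CPM. The count also depended on the method, with 279 genes by DESeq2 and 926 by edgeR on the 4 compared libraries alone. A change of at least 1 on the log2 scale was found for 127 of them and of at least 2 for 79. For all 142 both mutant values were beyond both wild type values on one side, which held for 50% of all genes tested. Of the 142, 9 had 0 counts in both wild type libraries and 5 had 0 counts in both mutant libraries. The count depended on each library. Leaving out the first or second wild type library gave 68 or 61 genes, leaving out the first or second mutant library gave 81 or 64, and 47 genes passed in each of these 4 fits. All 24 libraries share the estimate of the spread, and the 2 wild type libraries of 8 h differed most from each other. In a fit without that pair, chosen after the data were seen, 218 genes passed, 112 higher and 106 lower, and all 142 were among them.

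**Figure D1:**
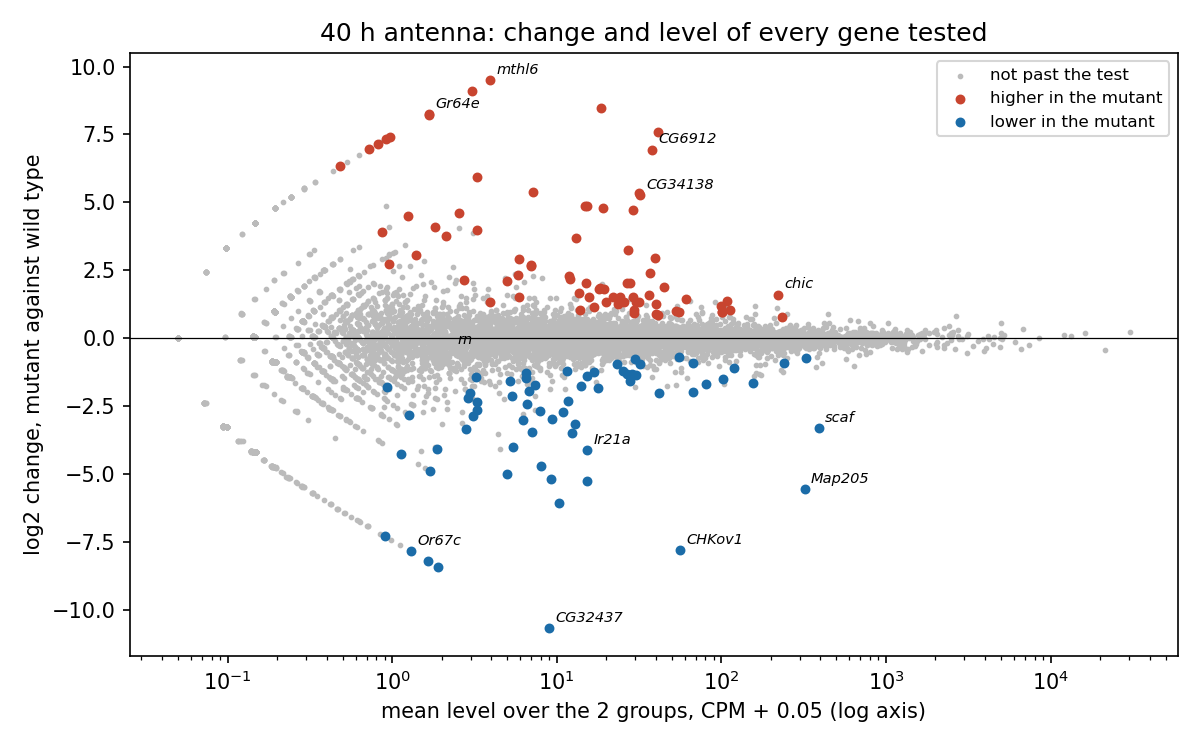
Every gene tested at 40 h, plotted by its mean level over the mutant and wild type libraries (CPM + 0.05, log axis) and its log2 change in the mutant. Red and blue points are the 77 genes higher and the 65 genes lower in the mutant, grey points the rest; Map205 and scaf stand out as losses at high level, and the diagonal edges at the left are genes with 0 counts in one genotype.

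Losses were ranked among genes with a higher-group mean of at least 5 CPM. The largest of them fell on a pair of neighbouring kinase-like genes, a microtubule-associated protein and enzymes of detoxification. A carotenoid receptor and a cool receptor were also among them. Map205 (3R 32055279 to 32068441), a microtubule-associated protein, was among the most abundant of these genes. It was at 635 and 622 CPM in the wild type and 10.2 and 16.5 in the mutant, with a change of -5.56 ± 0.41 (adjusted p = 6.21e-07). CHKov1 (3R 25323156 to 25329316), of a family of small-molecule kinases, was at 111 and 112 CPM in the wild type and 0.386 and 0.577 in the mutant (-7.82 ± 0.44, adjusted p = 3.22e-08). Its neighbour CHKov2 lies 214 bases away. CHKov2 was at 10.8 and 8.35 CPM in the wild type and 0 and 0.577 in the mutant (-4.99 ± 0.73, adjusted p = 0.001). For all 3 genes the groups were far apart and the replicates close.

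CG32437 (3L 21357683 to 21359867) was at 14.5 and 21.3 CPM in the wild type and had 0 counts in both mutant libraries, at least 125-fold lower against a floor of 3 counts over the group. GstZ1, a glutathione S-transferase of the zeta class that works in tyrosine breakdown, was at 20.5 and 20.1 CPM in the wild type and 0.579 and 0 in the mutant (-6.08 ± 0.75, adjusted p = 0.000299). Floors and intervals of counts cover counting error only. The genes so far lost nearly all of their transcript in both mutant libraries. Ir21a (2L 21823 to 25155), a receptor that cool-sensing neurons of the arista need, was at 32.7 and 25.1 CPM in the wild type and 0.966 and 2.31 in the mutant (-4.13 ± 0.54, adjusted p = 0.000349). Fewer cells of a type and less RNA per cell cannot be told apart in such whole-antenna RNA. scaf (2R 5676750 to 5691723), scarface, a secreted protein related to serine proteases, was at 675 and 747 CPM in the wild type and 108 and 35.3 in the mutant (-3.31 ± 0.50, adjusted p = 0.00124). The mutant libraries of scaf were apart from each other, and both lay well below the wild type. Every gene described so far among the falls passed in each of the 4 fits that left out a library.

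The other 6 of the 12 largest falls lost their call in at least 1 of the 4 fits that left out a library. ninaD, a scavenger receptor that takes up carotenoids, was at 20.3 and 15.5 CPM in the wild type and 0.579 and 0.385 in the mutant (-5.19 ± 0.84, adjusted p = 0.00407), and its adjusted p was 0.0661 without mutant library 1 and 0.109 without mutant library 2. CG5909 was at 26.6 and 32.7 CPM in the wild type and 0.966 and 0.577 in the mutant, with an adjusted p of 0.00839. Leaving out the second wild type, the first mutant or the second mutant library gave 0.0516, 0.124 and 0.201. tut, tumorous testis, an RNA-binding protein of the male germ line, was at 17.4 and 13.2 CPM against 1.16 and 0, with an adjusted p of 0.0136. Without wild type library 1, wild type library 2 or mutant library 2 it was 0.0864, 0.0516 and 0.202. The groups of all 3 genes were far apart in level. prom, a prominin of membrane protrusions, was at 8.90 and 11.5 CPM against 0.579 and 0.673 (adjusted p = 0.0251), and lost its call without any one of the 4 libraries, with adjusted p-values from 0.0879 to 0.296 there. It shares 1177 bases on the same strand with CG42383. Ugt36F1, a UDP-glycosyltransferase, was at 12.5 and 13.2 CPM against 1.74 and 0.577 (adjusted p = 0.0109), and its adjusted p was 0.0689, 0.0791 and 0.145 without wild type library 1, wild type library 2 and mutant library 2. Cyp12d1-p is described with the other P450 genes. Rarer transcripts with large falls were outside this ranking, such as Or67c (-7.86 ± 1.18) and Hsp60B (-7.29 ± 1.46), described below.

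The ranking of rises, too, took genes with a higher-group mean of at least 5 CPM. The largest were of genes silent or nearly so in the wild type antenna at 40 h. Rarer transcripts with large rises were outside it, such as Gr64e (8.24 ± 1.08) and Gr64f (6.97 ± 1.22), described below. mthl6 (3L 7485967 to 7487918), a receptor of the methuselah-like family, had 0 counts in both wild type libraries and stood at 6.57 and 9.04 CPM in the mutant, at least 55.9-fold higher (adjusted p = 4.15e-05). CG43149 had 2 counts in the wild type and was at 33.8 and 40.2 CPM in the mutant, a ratio of 398 with a 95% counting interval of 110 to 3290. The neighbours CG6912 and CG3984 (3R 15135138 to 15139007, 144 bases apart) rose together. CG6912 was at 0.293 and 0.888 CPM in the wild type and 80.4 and 70.5 in the mutant (6.94 ± 0.38, adjusted p = 3.22e-08). CG3984 was at 0.391 and 0.444 CPM in the wild type and 96.2 and 68.1 in the mutant (7.58 ± 0.65, adjusted p = 3.22e-06). Neither wild type library reached 1 CPM for any of these 4 genes.

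Spn47C, a member of the serpin family of protease inhibitors, was at 1.86 and 1.16 CPM in the wild type and 59.0 and 63.4 in the mutant (5.34 ± 0.44, adjusted p = 2.40e-06). CG34138 was at 1.76 and 1.51 CPM in the wild type and 67.8 and 57.7 in the mutant (5.26 ± 0.37, adjusted p = 6.21e-07). It lies within 931 bases that it shares with subdued on the other strand. CG14275 was at 0.880 and 1.07 CPM in the wild type and 26.0 and 31.1 in the mutant (4.85 ± 0.37, adjusted p = 1.07e-06). The separation of the groups was again far larger than the distance between replicates. CG5697 was at 1.56 and 0.444 CPM in the wild type and 32.2 and 26.6 in the mutant, and CG31205 at 0.196 and 0.444 against 11.8 and 15.97. yellow-d2, of the yellow family, was at 1.96 and 0.711 CPM against 39.2 and 34.8, and shares 1395 bases with CG13551 on the other strand. The last of the 12, aqrs (aquarius), known from the male reproductive tract, had 0 counts in the wild type and stood at 6.18 and 5.77 CPM in the mutant, at least 42.8-fold higher. Its adjusted p was 0.03 and rose to between 0.164 and 0.193 without any one of the 4 libraries, whereas the other 11 largest rises passed in every one of those fits.

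**Figure D2:**
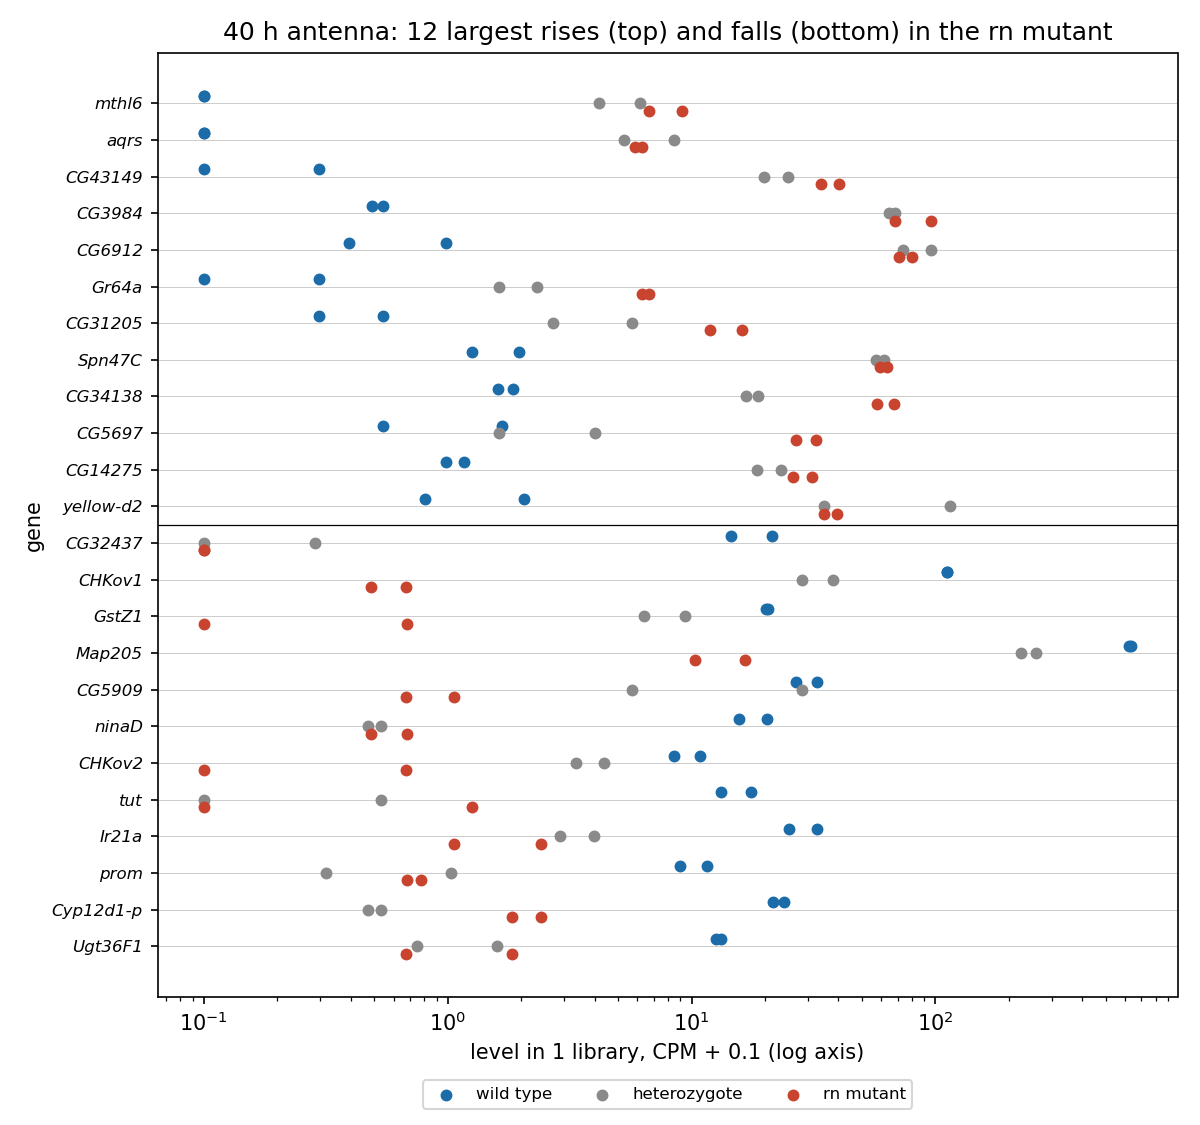
Level of the 12 genes with the largest rises (top) and the 12 with the largest falls (bottom) in each 40 h library (CPM + 0.1, log axis). They were ranked among genes with a higher-group mean of at least 5 CPM. Points are single libraries of wild type, heterozygote and mutant; in every gene the mutant points lie apart from the wild type points, while the heterozygote points lie near the mutant in some genes, such as CG6912 and ninaD, and near the wild type or between in others, such as CG5697 and Map205.

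Among the receptor genes of the antenna, sweet taste receptors rose and 2 receptors, Ir21a and Or67c, fell. The gustatory receptors are a family of taste receptors. Of its 60 listed members 23 were tested, 4 were higher in the mutant and 0 lower, against 0.7% and 0.591% of all genes tested, with a list median of 0.75 on the log2 scale against 0 for all genes tested. The 4 are members of the Gr64 cluster of sugar receptors, which lie side by side on 3L between 4026769 and 4037575. Gr64a had 2 counts in the wild type (0.196 and 0 CPM) and was at 6.57 and 6.16 CPM in the mutant, a ratio of 68.3 with a counting interval of 18.5 to 570. Gr64e had 0 counts in the wild type and was at 2.22 and 4.33 CPM in the mutant, at least 23.5-fold higher (adjusted p = 0.000965). Gr64d had 0 counts in the wild type too, and was at 2.22 and 4.23 CPM in the mutant (adjusted p = 0.00184), but its annotated span shares 3563 bases with Gr64e on the same strand, so the counts of these 2 genes are not independent. Gr64f had 0 counts in the wild type and was at 1.16 and 1.54 CPM in the mutant, at least 9.66-fold higher (adjusted p = 0.00785). Without wild type library 1, wild type library 2 or mutant library 2 its adjusted p was 0.0828, 0.0974 and 0.0611. For these 4 members the wild type held at most 2 counts per gene. The remaining members of the cluster, Gr64b and Gr64c, which overlap each other and were named after their values were seen, were already present in the wild type. Gr64b was at 4.40 and 4.62 CPM there and at 8.69 and 6.93 in the mutant (0.79 ± 0.44, adjusted p = 0.829).

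Or67c (3L 10243320 to 10244706), an odorant receptor of a small basiconic sensillum, was at 2.35 and 2.67 CPM in the wild type and had 0 counts in both mutant libraries, at least 17.4-fold lower (adjusted p = 0.00549). It was the 1 of 15 tested receptors of the sensilla ab4 to ab10 to pass, against a background of 1.29%, with a list median of 0. Its adjusted p was 0.054 without mutant library 1 and 0.0636 without mutant library 2. Among the 8 tested receptors of the arista and sacculus 1 was lower, Ir21a, and the list median was -0.46. By edgeR's test none passed among the 10 receptors of ab1 to ab3, the large basiconic sensilla (median -0.29), the 13 of trichoid and intermediate sensilla (median -0.88), the 10 of coeloconic sensilla (median -0.48), the 4 tested of the palp or the 5 coreceptors (median -0.33). Most of these genes stood too low to show a loss. Of the antennal receptors measured, 3 of 10 for ab1 to ab3, 4 of 15 for ab4 to ab10, 3 of 13 for trichoid and intermediate, 4 of 10 for coeloconic sensilla and 5 of 8 for arista and sacculus reached 1 CPM in the wild type. In the mutant 3, 3, 1, 4 and 3 did, not always the same genes. The coeloconic receptors of the mutant included Ir84a, which was below 1 CPM in the wild type.

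Of the receptors seen at 40 h and given here, Or43b, Gr21a and Ir75d had overlapping groups, while Gr63a, Or47b and Ir76a did not. None of them passed over all 24 libraries. The following, beyond those of the naming rule, were picked after their values were seen. Or43b, of a small basiconic sensillum, was the most abundant odorant receptor, at 19.7 and 17.9 CPM in the wild type and 19.7 and 19.4 in the mutant (0.06 ± 0.24, adjusted p = 1). Gr21a, a subunit of the carbon dioxide receptor, was at 3.23 and 3.73 CPM in the wild type and 3.48 and 5.10 in the mutant. Its partner Gr63a was at 2.44 and 2.84 against 2.22 and 0.866. The groups overlapped for Or43b and Gr21a, while both mutant libraries of Gr63a lay below the wild type, 1 of them well below (-0.77 ± 0.48, adjusted p = 0.909). Or47b, a trichoid receptor, was at 2.93 and 1.6 CPM in the wild type and 3.86 and 3.08 in the mutant (0.62 ± 0.49, adjusted p = 1). Both mutant libraries of Or47b lay above the wild type. Ir75d, of coeloconic sensilla, was at 7.82 and 5.86 against 5.02 and 7.41, and Ir76a at 1.66 and 2.13 against 4.35 and 6.83 (1.55 ± 0.46, adjusted p = 0.166). Ir76a lay higher in both mutant libraries, and its adjusted p was 0.0367 in the fit without the wild type libraries of 8 h.

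A few receptors were far apart between the groups yet missed the threshold. Or19b, a trichoid receptor, was at 4.30 and 2.67 CPM in the wild type and 0.386 and 0 in the mutant (-4.10 ± 1.05, adjusted p = 0.1). Its near-identical copy Or19a was at 3.81 and 2.84 CPM against 0.386 and 0 (adjusted p = 0.0979), and the counting may split or share reads between the 2 copies. The DESeq2 test passed Or19b. Ir84a, a coeloconic receptor, had 2 counts in the wild type and was at 1.16 and 2.31 CPM in the mutant (4.08 ± 0.96, adjusted p = 0.0566). In adults Or19b was at 35.4 and 38.6 CPM in the wild type and 0.153 and 0.236 in the mutant (-7.50 ± 0.97, adjusted p = 0.000573 by edgeR). Its 40 h heterozygote libraries were at 0.433 and 0 CPM. Of other receptors that were nearly absent from the adult mutant, Or67d was at 0.196 and 0.178 CPM in the 40 h wild type. Or47a was at 0.391 and 0.178 there, Or98a at 0.196 and 0 and Or67a at 0 and 0. A loss of those at 40 h was not detectable at this depth.

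The coreceptors, which receptors need in order to work, did not pass over all 24 libraries. Ir25a was at 113 and 106 CPM in the wild type and 46.4 and 69.0 in the mutant (-0.92 ± 0.28, adjusted p = 0.187), with no overlap of the groups, and its adjusted p was 0.00613 in the fit without the wild type libraries of 8 h. Orco, the coreceptor of the odorant receptors, was at 10.2 and 7.28 CPM against 7.82 and 6.06 (-0.33 ± 0.27, adjusted p = 1), and these groups overlapped. Snmp1, a membrane protein of pheromone-sensing neurons, was at 7.63 and 7.64 CPM against 3.09 and 4.81 (adjusted p = 0.58). The 20 odorant-binding and support-cell genes had 0 past the test and a median of -0.33. Obp56a, the most abundant of them, was at 3643 and 3742 CPM in the wild type and 3580 and 2506 in the mutant, and Obp28a at 495 and 548 against 379 and 495.

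Factors of antennal patterning and neuron fate had no member past the test, in lists so short that the 1.29% of all genes tested would be under 1 gene in each. Of 24 tested transcription factors of neuron fate, 23 factors of the proximodistal axis and 22 proneural and Notch genes, none passed, and the list medians were 0.02, 0.04 and -0.08. The homeodomain factor hth, which defines antenna against leg, was at 757 and 763 CPM in the wild type and 804 and 806 in the mutant (0.08 ± 0.30). Its partner exd was at 407 and 367 CPM against 382 and 405 (0.03 ± 0.20), and the receptor N (Notch) at 415 and 436 against 396 and 394 (-0.11 ± 0.18). These groups lay within or close to each other's range. By edgeR's test no member of the 25 tested cilium and intraflagellar transport genes, the 14 mechanosensory genes of Johnston's organ, the 47 axon guidance and adhesion genes, the 31 dpr and DIP genes, the 16 pan-neuronal or the 11 glial genes passed either, with medians from -0.17 to 0.08. The guidance ligand Sema2a was at 884 and 874 CPM against 857 and 822 (-0.07 ± 0.24) and its receptor family member PlexA at 799 and 799 against 753 and 738 (-0.10 ± 0.34). The cytoskeletal neuronal gene futsch was at 359 and 407 against 366 and 436.

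Single members of other neuronal families passed, where 1.29% of all genes tested did. beat-Ic, of the beat family of cell-surface proteins that guide motor axons, was at 1.96 and 1.78 CPM in the wild type and 11.9 and 11.8 in the mutant (2.66 ± 0.62, adjusted p = 0.0465). It was 1 of 19 tested beat and side genes, and its adjusted p was 0.207 to 0.444 without any one of the 4 libraries. ppk13, of the pickpocket family of sodium channels, was at 0.196 and 0.178 CPM in the wild type and 4.44 and 5.19 in the mutant (4.62 ± 0.43, adjusted p = 3.10e-05). ppk28, the channel of water taste, was at 3.13 and 6.22 CPM against 1.35 and 0.962 (-2.01 ± 0.47, adjusted p = 0.0465), and its adjusted p was 0.615, 0.207 and 0.526 without wild type library 2, mutant library 1 and mutant library 2. The other 14 of 16 tested pickpocket genes did not pass, and the list median was -0.30.

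Single genes and neighbouring pairs among the enzymes of detoxification changed, in both directions. Of 76 tested cytochrome P450 genes 2 were higher and 3 lower (median -0.12), of 34 glutathione S-transferase genes 0 were higher and 2 lower (median 0.20), and of 23 UDP-glycosyltransferase genes 1 was higher and 1 lower (median 0). Over all genes tested 1.29% passed. In the fit without the wild type libraries of 8 h, 4 glutathione S-transferase genes passed. Over all genes 218 passed in that fit, against 142 in the fit over 24 libraries. Cyp12d1-p, a mitochondrial P450, was at 23.9 and 21.5 CPM in the wild type and 1.74 and 2.31 in the mutant (-3.48 ± 0.54, adjusted p = 0.00161), with an adjusted p of 0.0554 without mutant library 1. Its near copy and neighbour Cyp12d1-d was at 11.4 and 10.7 against 1.06 and 1.64 (adjusted p = 0.037), with adjusted p-values of 0.154 to 0.399 without any one of the libraries. Reads of these 2 paralogs may have been shared. Cyp6a9 was at 1.56 and 2.13 CPM in the wild type and 5.99 and 10 in the mutant (2.10 ± 0.29, adjusted p = 0.000602), and its neighbour Cyp6a21 rose with it, from 0.0978 and 0.355 to 1.35 and 1.83 CPM (adjusted p = 0.00416). Without wild type library 1 or mutant library 2 the adjusted p of Cyp6a21 was 0.0864 and 0.0618. Cyp4d14 was at 4.30 and 4.97 CPM against 2.03 and 1.35 (adjusted p = 0.0194; 0.0749, 0.171 and 0.36 without wild type library 1, wild type library 2 and mutant library 2). GstE5 was at 17.0 and 15.1 CPM against 7.34 and 6.35 (-1.23 ± 0.22, adjusted p = 0.00645), with an adjusted p of 0.0873 without wild type library 1 and 0.149 without mutant library 2. Ugt49C1 was at 2.84 and 1.07 CPM against 9.95 and 9.23 (adjusted p = 0.00483), and at 0.124 without wild type library 2.

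Among genes of cuticle, matrix and housekeeping, 1 cuticle gene and 1 heat shock gene passed, where 1.29% of all genes tested did. Of 84 tested cuticle protein genes 1 was lower and 0 higher (median -0.16). In the fit without the wild type libraries of 8 h 2 cuticle genes passed, and 218 genes over all, against 142 over 24 libraries. The 1 lower gene, Cpr65Au, was at 0.978 and 1.78 CPM in the wild type and 0.290 and 0.481 in the mutant (adjusted p = 0.0321). Its adjusted p was 0.993, 0.489 and 0.153 without wild type library 2, mutant library 1 and mutant library 2. Of 17 heat shock genes 1 was lower, Hsp60B, a mitochondrial chaperonin of the male germ line, at 2.15 and 1.24 CPM against 0 and 0 (adjusted p = 0.0432). Without any one of the 4 libraries its adjusted p was 0.107 to 0.314. None passed by edgeR among the 14 chitin synthesis genes (median 0.04), 14 apical matrix genes of hairs and bristles (median -0.26), 16 ecdysone response genes (median -0.19), 23 cell cycle genes (median -0.15), 84 ribosomal protein genes (median 0.09), 12 glycolysis genes (median -0.21), 13 antimicrobial peptide genes (median -0.50) and 4 sex-determination and dosage genes (median -0.06). The chitinase Cht7 was at 2289 and 2451 CPM in the wild type and 2468 and 3074 in the mutant, and the chitin synthase kkv at 1085 and 1234 against 1182 and 1324. The matrix protein gene tyn (trynity) was at 5674 and 5387 against 4673 and 4103 (-0.33 ± 0.31, adjusted p = 1), with no overlap of the groups. The ecdysone-induced ImpE1 was at 4998 and 5375 CPM against 4670 and 5316.

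**Figure D3:**
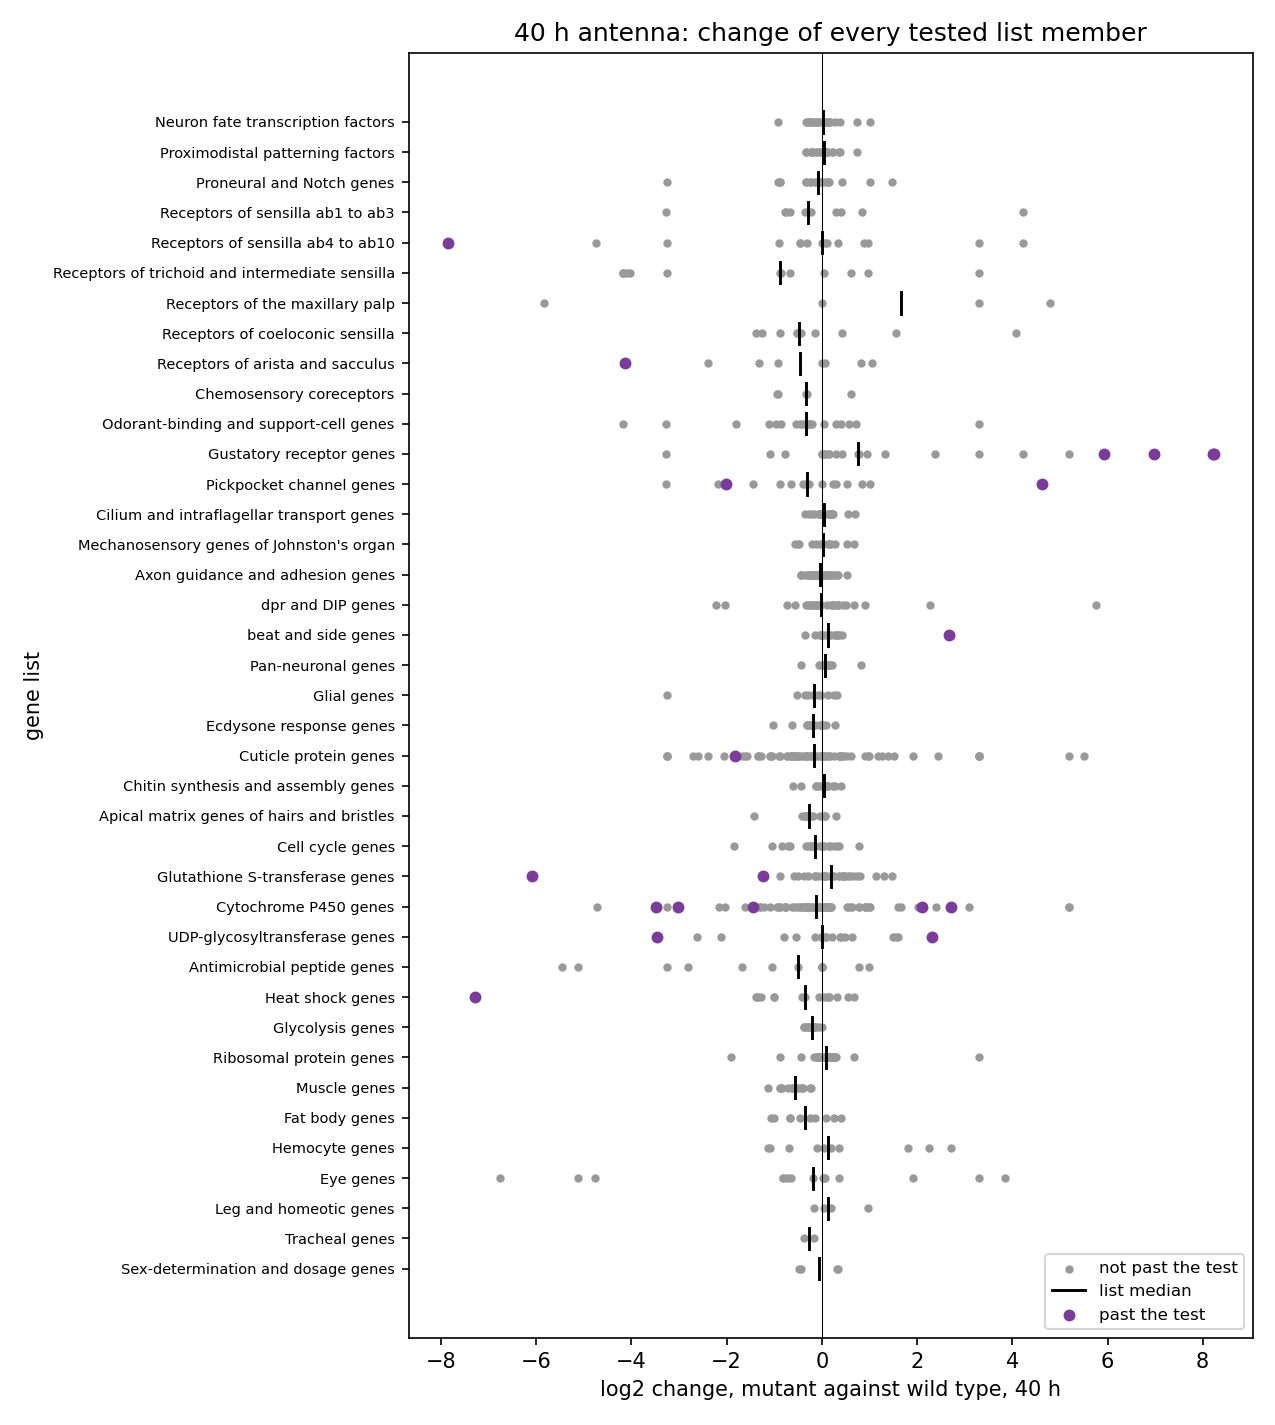
Log2 change, mutant against wild type at 40 h, of every tested member of the gene lists. Grey points did not pass the test, purple points did, and black bars are list medians; the medians lie near 0 except in lists of few or barely transcribed genes and in the muscle genes, all of which lie left of 0.

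The genes that changed were spread over the genome, and 1 lay within 1 Mb of rn. rn is on 3R at 7272617 to 7309629. Of 173 genes tested with a gap of less than 1 Mb between their span and that of rn, 1 passed (0.578%). Over all genes tested 1.29% passed, so the count near rn is too small to tell from that share. From 1 to 5 Mb away 10 of 671 passed (1.49%), from 5 to 10 Mb 9 of 495 (1.82%) and from 10 to 30 Mb 20 of 1403 (1.43%). The 1 gene within 1 Mb was e(y)2b, a copy of the transcription and export factor e(y)2. It was at 5.48 and 5.24 CPM in the wild type and 0.386 and 1.06 in the mutant (-2.87 ± 0.60, adjusted p = 0.022), and its adjusted p was 0.0708 to 0.34 without any one of the 4 libraries. The share of genes past the test was 1.27% on 2L, 1.63% on 2R, 1.25% on 3L, 1.46% on 3R and 0.738% on X, and 0 of 76 passed on chromosome 4. For chromosome 3, which carries rn, it was 1.36%, and for the other chromosomes 1.23%. Of the 142 genes, 37 (26.1%) had another of them within 10 kb, while 602 of the 10851 other genes tested (5.55%) had one. The annotated spans of 10 of the 142 overlapped another of them, as in Gr64d and Gr64e. Reads of overlapping genes or near copies may have been shared, and the part of this in the 26.1% was not tested.

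The heterozygotes, which carry 1 copy of rn[tot] and the TM6 chromosome, were measured at the same stage, and their libraries stand beside those of the mutant in the following values. Comparisons of the mutant with the heterozygote and with the wild type share the mutant libraries, so their results are not independent. For CG6912 the heterozygote libraries were at 73.5 and 95.6 CPM and the mutant libraries at 80.4 and 70.5. For Spn47C they were at 61.5 and 57.1 against 59.0 and 63.4, for ninaD at 0.433 and 0.371 against 0.579 and 0.385, and for scaf at 31.4 and 52.6 against 108 and 35.3. In these genes the heterozygote level was close to that of the mutant. For Ir21a the heterozygote was at 3.90 and 2.79 CPM, above both mutant libraries and far below the wild type. Its change in the mutant against the heterozygote was -1.02 ± 0.57 and did not pass the test. For CHKov1 the heterozygote was at 28.4 and 38.1 CPM, for GstZ1 at 6.28 and 9.29 and for Map205 at 224 and 259. These 3 genes lay between mutant and wild type. For CG5697 it was at 1.52 and 3.90 CPM, near the wild type, and for Or67c at 6.28 and 8.92 CPM, above both wild type libraries.

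The test of mutant against heterozygote at 40 h passed 9 of the 10993 genes (0.0819%), 4 higher (0.0364%) and 5 lower (0.0455%), with 374 at an unadjusted p under 0.05. Leaving out the second heterozygote library gave 20 genes, and leaving out any of the other 3 libraries gave 3. The changes were -9.46 ± 1.03 for Or67c (adjusted p = 0.00429), -6.08 for CHKov1, -4.70 for GstZ1, -4.18 for Map205, 1.83 for CG34138 and 3.42 for CG5697. The other 3 genes were named after their values were seen. CG3857 was at 249 and 184 CPM in the heterozygote, 69.1 and 65.3 in the mutant and 40.1 and 41.7 in the wild type. CG13042 was at 37.0 and 20.8 CPM in the heterozygote, 107 and 153 in the mutant and 51.0 and 52.4 in the wild type. CG14082 was at 5.63 and 5.57 CPM in the heterozygote, 15.7 and 16.1 in the mutant and 8.99 and 10.7 in the wild type. For CG3857 the heterozygote was the genotype that stood apart. The test of heterozygote against wild type passed 112 genes (1.02%).

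The same genes were followed through the other stages, whose libraries are separate from those at 40 h. The fit gave each gene 1 spread over all stages, so calls at different stages are not fully independent. Mutant against wild type, 169 genes passed in the larval disc (1.54%), 369 in the 8 h antenna (3.36%) and 339 in the adult antenna (3.08%). Of the 142 genes of the 40 h antenna, 51 passed with the same direction in the larva, 60 at 8 h and 64 in the adult. Those are 35.9%, 42.3% and 45.1% of the 142, and 30.2%, 16.3% and 18.9% of the genes that passed at the other stage. The direction alone was the same for 76.1%, 78.2% and 77.5% of the 142, and for 56.4%, 52.7% and 55.2% of the other genes tested. The 8 h values rest on a wild type pair that disagreed, with 369 genes becoming 143 without library 1 and 4773 without library 2, and the 60 shared genes becoming 46 and 73. In their 40 h direction the 142 had a median log2 change of 0.73 in the larva, 1.03 at 8 h and 0.88 in the adult. At all 4 stages 28 genes passed the same way, among them Map205, GstZ1 and CG32437 on the lower side and mthl6, Spn47C, CG6912, CG34138, CG5697, ppk13 and the profilin gene chic on the higher side. CG32437 stood at 13.9, 32.4 and 23.6 CPM in wild type larvae, 8 h antennae and adults and at 0.0846, 0 and 0.155 in the mutants. Spn47C was at 2.93, 1.34 and 8.39 CPM in the wild type of those stages and 88.6, 66.2 and 180 in the mutant.

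**Figure D4:**
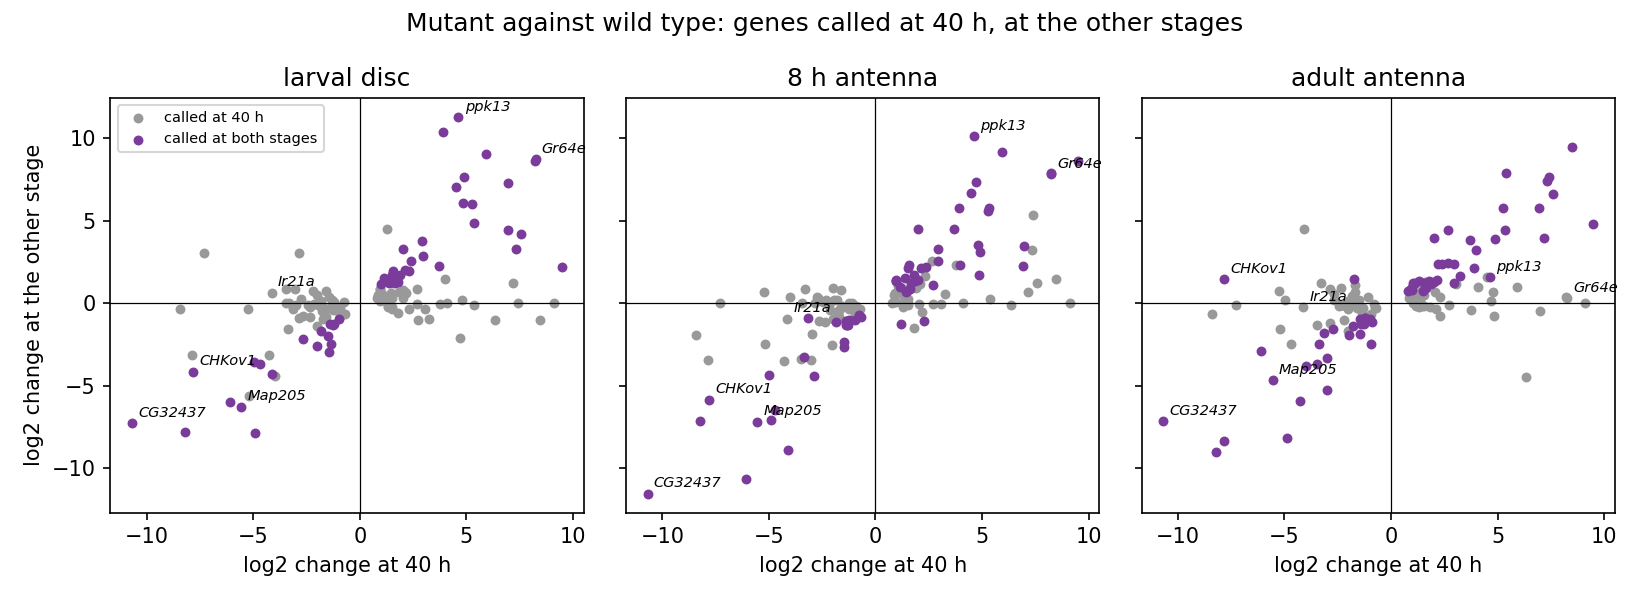
Log2 change, mutant against wild type, of the 142 genes past the test at 40 h (horizontal axis) against their change in the larval disc, 8 h antenna and adult antenna (vertical axes). Purple points passed at both stages, and most of them lie in the quadrants of equal direction; CHKov1 crosses to the upper left quadrant in the adult and Ir21a lies near 0 there.

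A further set of changes differed in size or direction between 40 h and another stage, in direct tests of that difference. The difference between the mutant effects at 40 h and 8 h passed for 43 genes (0.391%), between 40 h and adult for 82 (0.746%) and between 40 h and larva for 42 (0.382%). Of the 142 genes, 14, 32 and 14 passed them. These differences use the 40 h libraries again, so they are not independent of the result at 40 h. The first count rested on wild type library 2 of 8 h: without it 3488 genes passed, and with the other libraries of the contrast left out in turn 18 to 42. The second count was 23 to 98 and the third 20 to 31 when any one library of the contrast was left out, and they were 145 and 94 in the fit without both wild type libraries of 8 h. CHKov1 reversed its direction in the adult. There it was at 57.2 and 43.2 CPM in the wild type and 147 and 130 in the mutant, a rise of 1.47 ± 0.29 (adjusted p = 0.00772), where at 40 h the mutant had lost nearly all of it. The difference was -9.29 ± 0.53 (adjusted p = 7.83e-08). Its neighbour CHKov2 was alike in adults, at means of 73.5 and 85.1 CPM, with a difference of -5.20 ± 0.87 (adjusted p = 0.00874).

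The change of Ir21a, too, differed between 40 h and the adult. At 8 h it was at 14.8 and 6.98 CPM in the wild type and 5.53 and 5.82 in the mutant, and in adults at 62.3 and 59.3 against 50.3 and 54.3. The difference between 40 h and adult was -3.91 ± 0.68 (adjusted p = 0.0106). Its adjusted p was 0.0515 without wild type library 1 of 40 h, 0.0793 without mutant library 1 of 40 h, and 0.0559 and 0.0623 without the first and second adult wild type library. The mutant antenna at 40 h had less Ir21a transcript than the mutant antenna at 8 h in both libraries, whereas the wild type had more. Or67c took the other course: in adults it was at 28.1 and 29.0 CPM in the wild type and 0 and 0.157 in the mutant (-8.33, adjusted p = 5.17e-05), and at both earlier stages it was at or near 0 in both genotypes, with at most 0.184 CPM in a wild type library.

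The Gr64 genes were the reverse case, with a large change at 40 h and a smaller one in adults. Gr64e had 0 counts in the wild type of larva, 8 h and 40 h, was at 3.49 and 5.75 CPM in mutant larvae and 2.77 and 2.21 in mutants at 8 h, and at 5.96 and 6.06 in adult wild type against 6.06 and 9.05 in adult mutants. The difference between its effects at 40 h and in the adult was 7.91 ± 1.28 (adjusted p = 0.011). Leaving out the first or second wild type library or the second mutant library of 40 h gave 0.0627, 0.0786 and 0.0582. The difference for Gr64a was 4.93 ± 0.78 (adjusted p = 0.00874). The wild type thus had Gr64a, Gr64d, Gr64e and Gr64f transcripts in the adult, and before it at most 0.196 CPM of any of them in a library.

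CG14275 was at 119 and 102 CPM in adult wild type and 78.0 and 50.4 in adult mutants, so that its rise of 4.85 at 40 h stood against -0.78 ± 0.27 in the adult (difference 5.64 ± 0.47, adjusted p = 9.03e-06). scaf peaked at 40 h in the wild type alone. It was at 58.6 and 59.1 CPM in larvae, 70.6 and 171 at 8 h and 25.7 and 29.9 in adults of the wild type, and at 58.3 and 62.4, 263 and 173, and 70.8 and 60.5 in the mutant, and its difference from the adult effect was -4.55 ± 0.68 (adjusted p = 0.00366). The wat (waterproof) gene, an enzyme of fatty alcohol synthesis known from the airways, was at 13.9 and 13.5 CPM in the 40 h wild type and 2.70 and 1.54 in the mutant (-2.68 ± 0.38), and at means of 48.6 and 71.4 in adults. Mis12, a kinetochore protein, and HipHop, a protein of the telomere cap, had a different change at 40 h and in the larva. Mis12 fell from 23.5 and 23.1 CPM to 2.32 and 2.89 at 40 h (-3.16 ± 0.26), and its larval means were 20.8 in the wild type and 16.1 in the mutant (-0.37, adjusted p = 0.805). HipHop fell from 17.4 and 20.6 to 3.38 and 2.31 CPM, with larval means of 43.5 and 51.8 (0.25, adjusted p = 1).

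**Figure D5:**
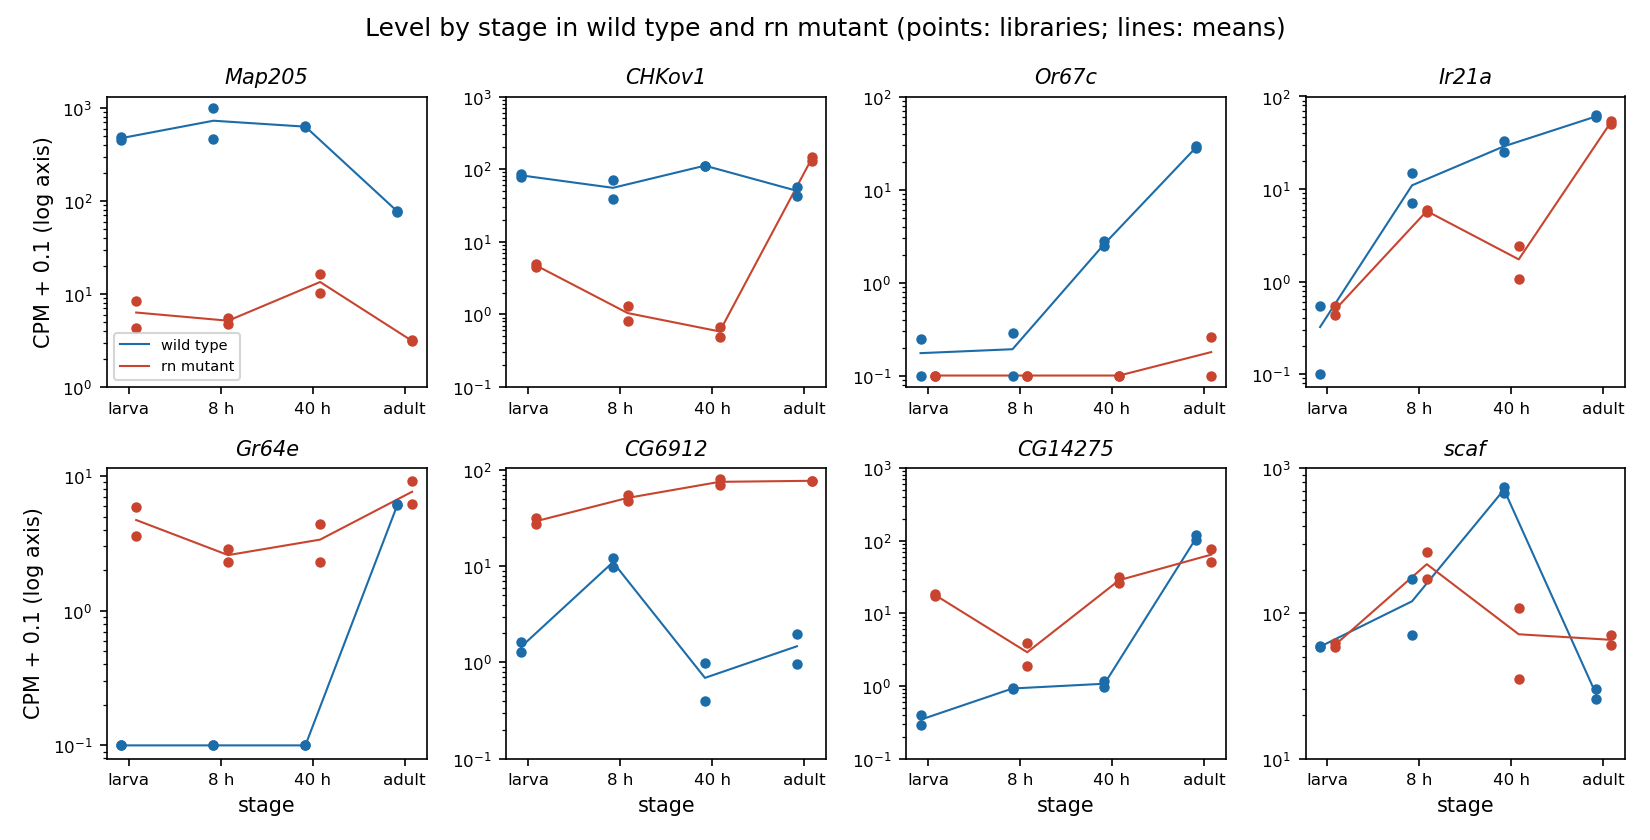
Level of 8 genes in the wild type (blue) and rn mutant (red) from larval disc to adult antenna (CPM + 0.1, log axes); points are libraries and lines join the group means. Map205, Or67c and CG6912 keep the 40 h direction in the adult, CHKov1 crosses over, Ir21a, Gr64e and CG14275 come together, and scaf peaks at 40 h in the wild type alone.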

How the data were processed

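The authors deposited unnormalized counts for 29872 transcripts, from RNeasy-extracted RNA in Illumina stranded mRNA libraries per the labels' protocols. The submitters' processing notes name CASAVA 1.8, BWA 0.7.12 and DESeq2. Genome build, counting program and strand setting of the authors: not given in the sources used here. The second deposited table, a normalized signal, equals the counts times 1 constant per library and was left aside. Of the deposited counts from 1 to 10, 78.5% were even, so counting intervals may be too narrow. FlyBase transcript IDs were matched to the Ensembl annotation of BDGP6, whose coordinates are given (29393 transcripts, 13409 genes, 98.69% of counts). Each gene took its transcript with the highest total (45.5% of counts).

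The test was edgeR 4.0.16 (R 4.3.3), with TMM scaling, a filterByExpr minimum count of 10 and a two-sided quasi-likelihood F test in 12 groups over 24 libraries (12 residual degrees of freedom), adjusted by Benjamini-Hochberg over 10993 genes and tested on simulated counts. Log2 changes are ± SE, and levels are CPM with TMM factors. A fold against 0 counts uses a floor of 3 counts per group. Alternatives were DESeq2 1.42.0, other scaling, filters, transcript sums and library sets, a replicate block and leaving out each library. The members and lists were chosen with earlier results of these data known. Named genes were rn and the 12 largest rises and falls with non-overlapping libraries and a higher-group mean of at least 5 CPM. Added to these were up to 4 members of each of 41 lists that passed, or else 2 abundant ones, and called genes within 1 Mb of rn. For each stage difference 5 genes past both that test and the 40 h test were named. Others were chosen after their values were seen.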

Additional observations from a re-analysis of the deposited data

Results flagged for a closer look

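The mutant effect differed between 40 h and another stage for the genes given here, by a direct test of the difference in edgeR. For each stage they have the 5 smallest p-values among genes that also passed mutant against wild type at 40 h. That choice favours genes with a large change at 40 h. Differences are on the log2 scale, 40 h effect minus the effect at the other stage. No explanation was tested.

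Against 8 h, the difference was 4.71 ± 0.47 for CG6912 (adjusted p = 0.000196), where the mutant was higher at both stages, with means of 10.9 and 51.3 CPM in wild type and mutant at 8 h. It was 6.33 ± 0.79 for CG3984, which was at means of 24.6 and 58.1 CPM at 8 h. It was 3.36 ± 0.37 for CG17549, which rose at 40 h from 3.13 and 4.89 to 17.96 and 21.5 CPM and fell at 8 h from 19.4 and 17.0 to 7.31 and 10.02. It was 2.44 ± 0.30 for CG10126, which rose at 40 h from 57.1 and 64.8 to 128 and 149 CPM and fell at 8 h from 156 and 105 to 60.2 and 49.2. It was 2.70 ± 0.34 for nxf2, which acts in silencing of transposons by piRNAs in the ovary, at 4.89 and 3.73 against 21.1 and 18.1 CPM at 40 h and at means of 63.5 and 44.3 at 8 h. The difference for nxf2 had an adjusted p of 0.051 with the libraries of the 2 stages alone. Each of these 5 differences passed without either wild type library of 8 h, which disagreed with each other.

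Against the adult, the difference was -9.29 ± 0.53 for CHKov1, 5.64 ± 0.47 for CG14275, -4.55 ± 0.68 for scaf, -3.24 ± 0.49 for wat and 3.03 ± 0.35 for CG17549, whose adult means were 114 CPM in the wild type and 68.2 in the mutant. CHKov1 was the 1 of these 5 genes that passed in the opposite direction in the adult.

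Against the larva, it was -2.78 ± 0.34 for Mis12, 2.62 ± 0.35 for CG17549, -3.69 ± 0.56 for CHKov1, which was lower in the mutant at both stages, and -2.99 ± 0.51 for HipHop. It was 4.20 ± 0.53 for Fuca, an alpha-L-fucosidase, at 5.67 and 4.62 CPM in the wild type and 45.8 and 52.3 in the mutant at 40 h and at means of 21.7 and 11.2 in larvae. Fuca lies within CG11714 on the same strand for 3916 bases, so its counts may hold reads of that gene. Without mutant library 1 of 40 h the adjusted p of the difference for CHKov1 was 0.0527. That for HipHop was 0.0532 with a replicate block and 0.0574 to 0.108 without larval wild type library 1 or 2, 40 h wild type library 2 or 40 h mutant library 2.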

How the results depend on the processing

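Of the 142 genes between mutant and wild type, 140 also passed with relative log expression scaling, 134 without the filter, 120 with transcripts summed, 112 with the 40 h libraries alone and 140 with DESeq2, and all 142 in a fit without the wild type libraries of 8 h, added after the data were seen. In all 12 alternatives 46 passed. DESeq2 gave 279 genes for that comparison, 36 for mutant against heterozygote, and 173, 233 and 117 for the differences from 8 h, adult and larva. With the 4 compared libraries alone the first count was 926, and with the libraries of 2 stages alone the differences gave 11, 233 and 26. Replicate numbers did not pair the libraries (correlation of same-numbered deviations -0.055 for wild type and mutant): with a replicate block the 5 counts were 105, 5, 38, 52 and 29. Without single libraries they ran from 61 to 81, 3 to 20, 18 to 3488, 23 to 98 and 20 to 31, where 3488 came without wild type library 2 of 8 h. Without both wild type libraries of 8 h, mutant against wild type gave 218 genes and the differences from adult and larva gave 145 and 94. In that fit 2 coeloconic receptors, 1 coreceptor, 1 of the dpr and DIP genes, 1 ecdysone response gene and 1 hemocyte gene passed, where none had, and cuticle and glutathione S-transferase genes went from 1 and 2 to 2 and 4. Mutant against wild type at 8 h gave 143 to 4773 without one of that pair. The causes were not tested. With 2 libraries per group and most receptors under 1 CPM, small changes and losses of rare transcripts can be missed.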

Other observations

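The genes in these paragraphs were picked after their values were seen. mre11, a nuclease of double-strand break repair, was at 9.58 and 13.3 CPM in the wild type and 29.2 and 35.8 in the mutant at 40 h (adjusted p = 0.000241). phr, the photolyase that repairs ultraviolet damage, was at 2.15 and 1.6 CPM in the wild type and 10.9 and 13.1 in the mutant (2.68 ± 0.32, adjusted p = 0.000183). The helicase gene Rtel1 was lower, at 21.2 and 22.5 CPM in the wild type and 5.41 and 7.31 in the mutant (-1.78 ± 0.26, adjusted p = 0.000934). These 3 genes passed in each of the 4 fits without a library.

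Besides the Gr64 and CHKov genes, mthl3 and mthl4, of the same receptor family as mthl6, lie side by side on 2R and both passed. mthl3 was at 12.7 and 8.70 CPM in the wild type and 42.0 and 44.1 in the mutant, and mthl4 at 8.90 and 6.93 against 25.2 and 31.7. Prosalpha1, which overlaps phr by 17 bases, and its near copy Prosalpha1R, which overlaps CG18853 by 17 bases, had nearly equal values, and CG18853 passed too. Prosalpha1 was at 68.0 and 69.6 CPM against 124 and 141, and Prosalpha1R at 67.9 and 69.3 against 124 and 141, so their reads may have been shared. Nlg2, a neuroligin of synapses, was at 1.27 and 1.42 CPM in the wild type, 9.75 and 10.96 in the mutant and 9.74 and 9.38 in the heterozygote. chic, the profilin of actin assembly, was at 115.1 and 103 CPM in the wild type and 326 and 336 in the mutant (adjusted p = 0.000806). Rel, a transcription factor of the immune response, was at 65.1 and 71.2 CPM in the wild type and 41.9 and 41.7 in the mutant (-0.70 ± 0.16, adjusted p = 0.0406), and it lost its call without any one of the 4 libraries.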
